A study of Mus musculus with 6 samples.

Results

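Embryonic stem cells (ESC) and neurospheres (NS) of the mouse were compared gene by gene on 4 of the 6 two-colour oligonucleotide arrays of the series, 2 per cell type. The arrays were chosen by their labels, and every non-control spot entered: 41034 spots an array, which hold 41006 probes. ESC were C57BL/6 cells maintained over irradiated embryonic fibroblasts in medium with 15% fetal calf serum and leukemia inhibitory factor (LIF), then moved to dishes free of feeders before RNA was taken. NS were C57BL/6 cells from the telencephalon of E11.5 embryos, dissociated and grown as floating clusters in N2-plus medium with basic fibroblast growth factor and epidermal growth factor at 20 ng/mL. On each array the sample carried Cy3, and a reference RNA pooled from 11 mouse cell lines carried Cy5, with no dye swap. The other 2 arrays hold multipotent adult progenitor cells, grown with 2% serum at 5% oxygen, and entered the fit only to help estimate the spread. Culture medium and cell type differ together and cannot be told apart. The series text calls the arrays of a cell type biological replicates without naming separate cultures, so a p-value measures the spread between these arrays. In RNA from whole cultures, fewer cells of a type and less RNA per cell cannot be told apart.

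Mouse ESC derive from the inner cell mass of the blastocyst. Pou5f1 (Oct4), Sox2 and Nanog hold them in a state from which all tissues of the embryo can form, and LIF sustains that state through Stat3. Neuroepithelial cells of the early telencephalon are the founders of the cortex and striatum. Notch receptors and their Hes targets keep them dividing, and fibroblast and epidermal growth factors allow them to expand in culture. Nanog has no probe named here and is not analysed here.

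Each value below is a log2 ratio of sample to reference, from the deposited processed intensities, and each difference is ESC minus NS, so a positive difference is a higher level in ESC. A probe was called at an adjusted p under 0.05 (limma, Benjamini-Hochberg over all 39169 tested probes), SE is the moderated standard error, and n = 2 arrays per cell type throughout. With 2 arrays against 2, an exact permutation test cannot go below p = 0.3333, so every call rests on the model fitted across all probes. A probe was taken as bright when its mean log2 signal over the 4 ESC and NS arrays reached the median of the tested probes in each channel. A probe weak in 1 cell type can therefore pass through the other, so bright does not mean a strong signal in both. Among genes ranked below, Zbtb32 had sample intensities of 186 and 163 in NS, and Il18 had 283 and 291 in ESC. A gene with several probes is given by its brightest, unless each probe is named.

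A gene measured by several bright probes is checked by each of them. The sequences that follow are the first 30 bases of the 60-base probes of 5 genes, 4 whose probes agreed and 1 whose probes did not, 5′ to 3′ as the deposited probe sequence column gives them. Hspb1, a small heat shock protein on chromosome 5, and Epcam, the epithelial cell adhesion molecule on chromosome 17, were higher in ESC by both probes. Fabp5, a fatty acid-binding protein on chromosome 3, and Lrig1, a membrane protein on chromosome 6 that restrains epidermal growth factor receptors, were higher in NS by both probes. Tango6, a protein of the secretory pathway on chromosome 8, has bright probes called in opposite directions. Capitals mark bases that both probes of a gene share within the letters shown.
Hspb1 probe 1: agcagtcacgcagtcagcggagatcaccat
Hspb1 probe 2: cccaaattgggggcccagaagctgggaagt
Epcam probe 1: aaatcagcaaaatatgagaaggctgagata
Epcam probe 2: tctaagtttgtttgaatcaaattttcctag
Fabp5 probe 1: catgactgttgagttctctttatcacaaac
Fabp5 probe 2: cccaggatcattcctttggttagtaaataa
Lrig1 probe 1: ggctagtctccatagttgATGGTTAATGTT
Lrig1 probe 2: ATGGTTAATGTTACTTCCACAAAATATGTG
Tango6 probe 1: ggaagcattgctgcttaaactacacaatac
Tango6 probe 2: gaaggagctcagaagccccccagaacaggc
The Lrig1 probes share 42 bases and are close to a repeat of 1 measurement, while those of Hspb1 share no run beyond 7 bases. The files give no position of a probe within its transcript.

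Of 39169 tested probes, 34.0% were called, 6822 higher in ESC and 6515 higher in NS. At least 2-fold differences were called for 2419 probes higher in ESC and 2220 higher in NS. Among the 17871 bright probes the called share was 44.0%, against 25.7% of the other tested probes, and the median SE was 0.0776 against 0.113. The root mean square of the difference between cell types was 0.781, while the same measure between replicates was 0.240 for ESC and 0.211 for NS. Feature Extraction ran on 2 days, each holding 1 ESC and 1 NS array, and the ESC minus NS difference correlated at r = 0.930 between the days across probes (0.980 over bright probes; probes are not independent replicates). Of all tested probes, 76.2% had the same sign on both days. Every probe called at 2-fold or more did, which selection on the same arrays makes nearly certain. Reduced to 12082 named genes by the brightest probe, 25.5% were higher in ESC and 19.7% higher in NS, with a median difference of 0.02. Those shares are the background for the counts of gene groups given here.

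**Figure D1:**
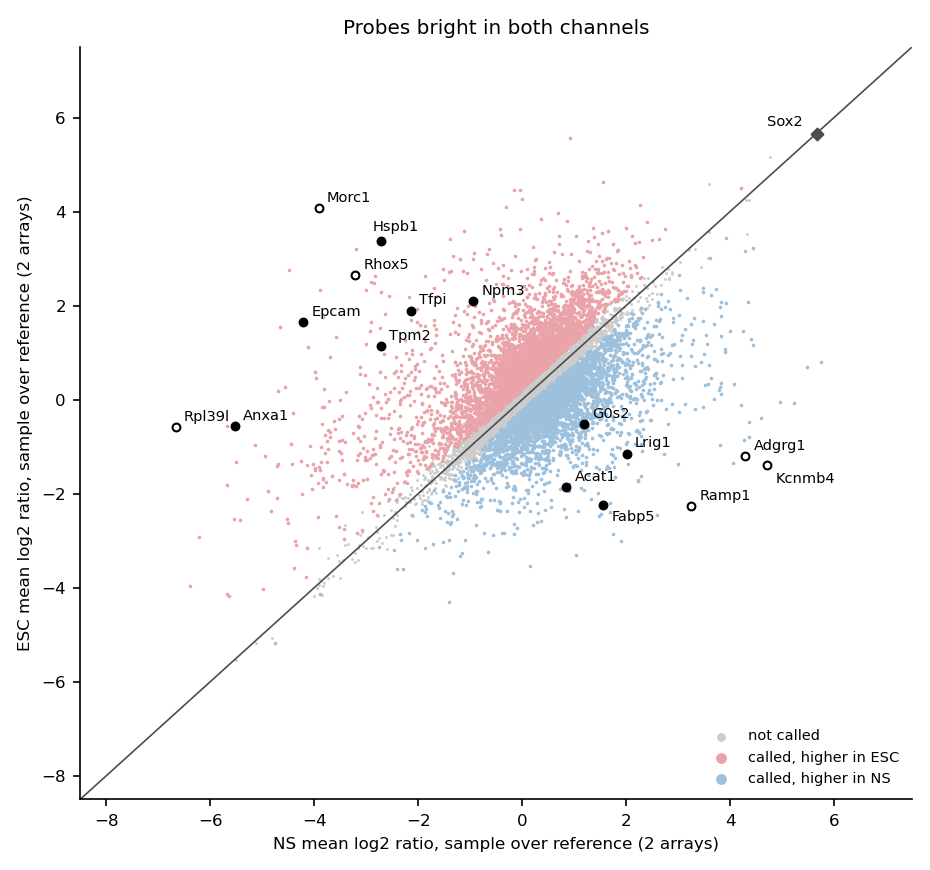
Mean log2 ratio of sample to reference in NS (x axis) and in ESC (y axis) for the 17871 bright probes, each the mean of 2 arrays; pink and blue points are called probes higher in ESC and in NS, filled labelled points are genes ranked by agreement of all their probes, and open ones genes with a single probe. Points on the diagonal have the same ratio in both cell types, and 44.0% of the probes lie far enough from it to be called.

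The markers went the way of their labels. Pou5f1, the core transcription factor of pluripotency, had ratios of 3.62 and 3.07 on the ESC arrays and -0.41 and -0.44 on the NS arrays, a difference of 3.77 (SE 0.229, adjusted p = 0.000176); its other probe differed by 3.03. Eras, a Ras-like protein of ESC, read 5.16 and 4.97 on the ESC arrays and 0.15 and -0.04 on the NS arrays, a difference of 5.01 (SE 0.135, adjusted p = 3.07e-05). Epcam read 1.66 and 1.65 on the ESC arrays and -4.04 and -4.39 on the NS arrays, a difference of 5.87 (SE 0.151, adjusted p = 2.85e-05). On these 3 genes both ESC arrays stood above both NS arrays with no overlap.

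Gpm6a, a membrane glycoprotein of neural cells, read -0.78 and -0.63 on the ESC arrays and 5.27 and 5.20 on the NS arrays, a difference of -5.94 (SE 0.240, adjusted p = 6.26e-05). Hes5, a repressor induced by Notch, read 1.87 and 0.87 on the ESC arrays and 4.69 and 4.88 on the NS arrays, a difference of -3.41 (SE 0.315, adjusted p = 0.000724). Adgrg1, an adhesion receptor of cortical progenitors, read -1.02 and -1.39 on the ESC arrays and 4.32 and 4.27 on the NS arrays, a difference of -5.50 (SE 0.30, adjusted p = 0.000131). All 3 were higher on both NS arrays, and the ESC arrays of Hes5 lay 1 log2 unit apart.

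The ratio differences of the strongest genes were smaller than those in the sample channel alone, and the reference intensity moved with the sample. The reference RNA is the same on every array. Even so, on the 50 probes whose sample channel was at least 5 log2 units lower in ESC, the reference channel was also lower, by a median of -1.52. On the 88 probes at least 5 units higher in ESC it was higher by 1.09, and on the 33780 probes within 1 unit it differed by 0.09. Hes5 is an example: its reference intensity was 115 and 171 on the ESC arrays and 997 and 881 on the NS arrays. From the sample channel alone, Hes5 differed by -6.27 rather than -3.41, Gpm6a by -7.83 and Pou5f1 by 4.46. The cause was not tested. The sign of these genes was the same on either scale. Among other genes named below, Dnmt3l differed by 6.68 in the sample channel alone, Cdh1 by 5.84 and Mycn by 4.13, each more than 1.5 times its ratio difference.

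**Figure D2:**
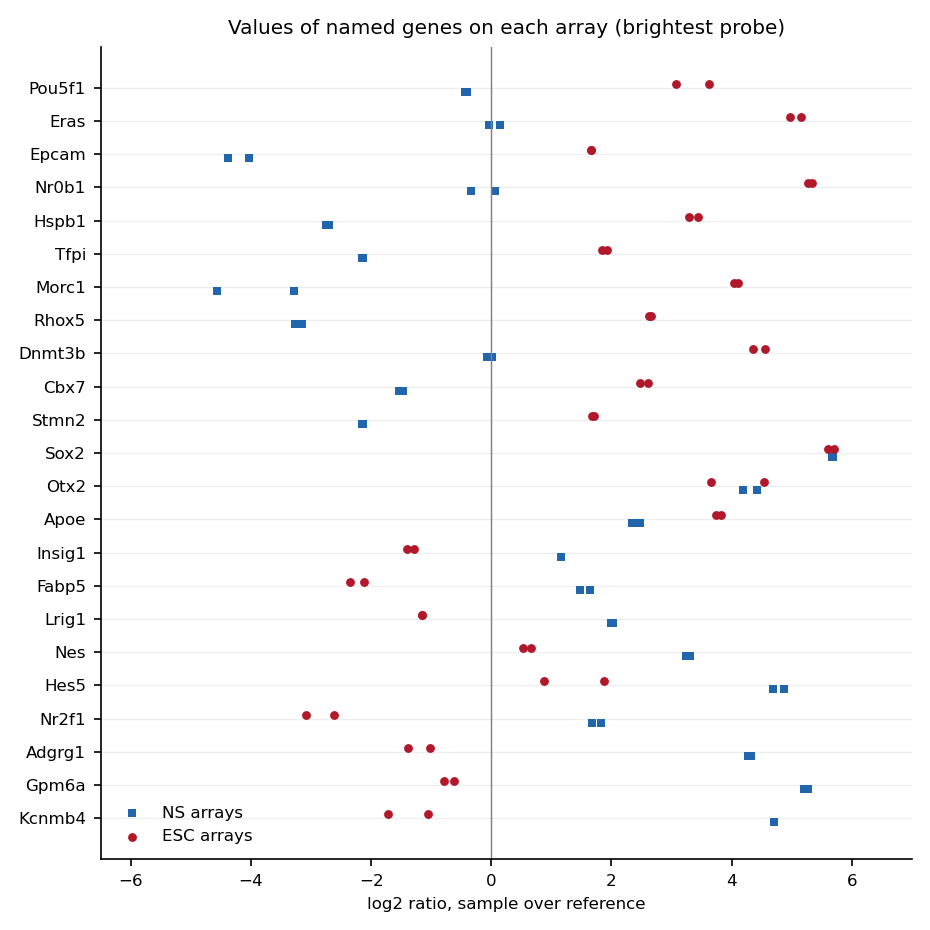
Log2 ratio of sample to reference on each of the 4 arrays for the markers and leading genes, 1 row a gene and 1 point an array. Circles are ESC arrays and squares NS arrays. The cell types stand apart for every gene drawn except Sox2 and Otx2, where they overlap; Pou5f1 lies above 3 on both ESC arrays and at -0.41 and -0.44 on the NS arrays.

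Where a gene has several probes, agreement between them is a check that 1 probe cannot give. Of 2676 genes with at least 2 tested probes, 730 (27.3%) had every probe called in 1 direction, 442 higher in ESC and 288 higher in NS. All probes reached 2-fold in 121 genes higher in ESC and 77 higher in NS. At the other end, 1143 genes had no called probe, 766 had only some called, and 37 had probes called in opposite directions. The brightest and the next brightest probe correlated across genes at r = 0.663 (n = 2676). Where both were bright r was 0.818 (n = 1039), and otherwise 0.563 (n = 1637). Probes that share 15 or more bases agreed closely, at r = 0.864 over 196 genes, and those without such a run at r = 0.647 over 2480. Genes are not independent replicates, so these values describe the array.

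**Figure D3:**
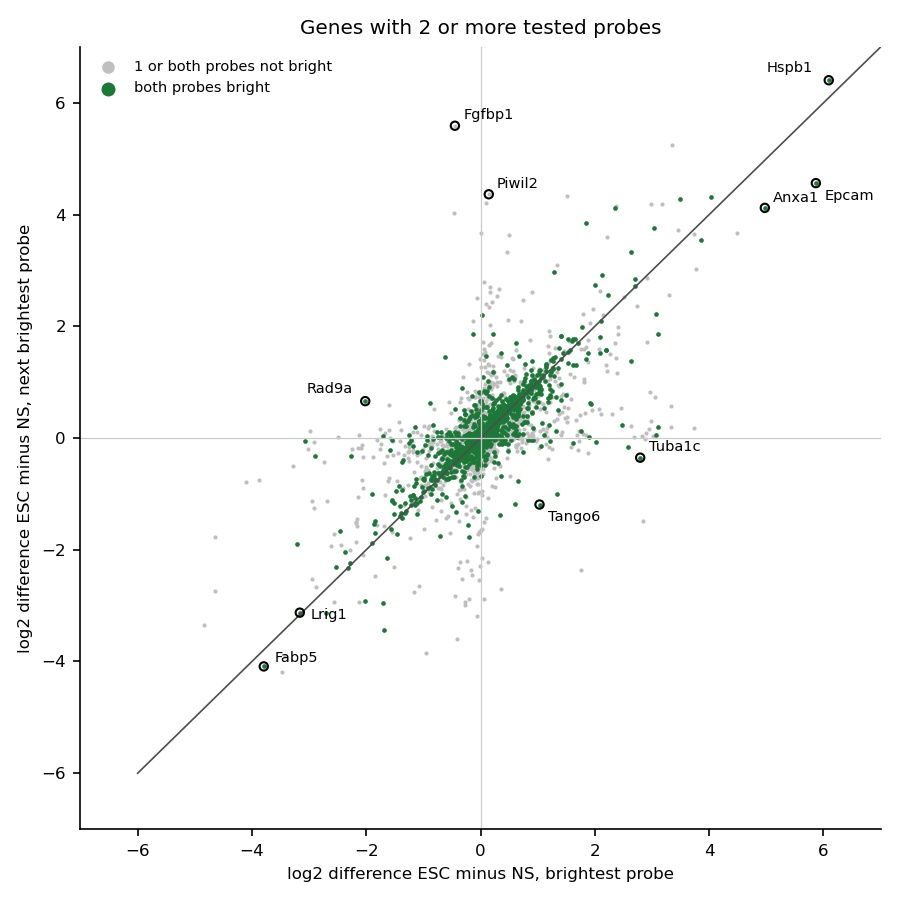
ESC minus NS difference of a gene's second probe (y axis, log2) against its brightest probe (x axis, log2) for the 2676 genes with at least 2 tested probes, with genes whose probes are both bright set apart by colour. Most genes follow the diagonal, and labelled genes off it, such as Tuba1c, have probes that disagree.

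Hspb1 led the genes higher in ESC by every probe: it read 3.29 and 3.44 in ESC and -2.70 and -2.75 in NS on the first probe, and its probes differed by 6.09 and 6.41. By the first probe the level was 68.2-fold higher in ESC. Anxa1, a phospholipid-binding protein, differed by 4.97 and 4.12 on its probes. Tfpi, the inhibitor of tissue factor-driven coagulation, differed by 4.03 and 4.31. Tpm2, beta-tropomyosin, differed by 3.86 and 3.55, and Mylpf, a myosin light chain, by 2.69 and 2.85.

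Npm3, a histone chaperone of the nucleoplasmin family, differed by 3.04 and 3.75. Ass1, which makes argininosuccinate in the urea cycle and arginine synthesis, differed by 1.85 and 3.85. Fosl1, a subunit of the AP-1 factor, differed by 2.64 and 3.33 on probes that share 53 bases. The other ranked genes were the serine protease Prss23 (2.70 and 2.72), the phospholipase Pgap6 (2.35 and 4.11) and the telomerase-associated Tep1 (3.07 and 2.23), whose probes share 19 bases. Both Fosl1 probes share a run of at least 15 bases with a probe named for Clec2i, and 1 Mylpf probe with Kdm5b, so those values are less certain. Epcam, also ranked, differed by 5.87 and 4.56, a gap of more than 1 log2 unit between probes of the same call. In all, 60 genes passed the ranking rule in the ESC direction, out of 989 with 2 or more probes, all of them bright.

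Fabp5 led the 41 genes that passed the same rule in the NS direction. It read -2.35 and -2.12 in ESC and 1.65 and 1.47 in NS on the first probe, and its probes differed by -3.79 and -4.09, a 13.9-fold higher level in NS by the first. The first Fabp5 probe had sample intensities of 437398 and 393004 in NS. Those are near the values of Fabp7 (453787 and 399136), whose sample channel was saturated on both NS arrays. The size for Fabp5 is therefore uncertain. Lrig1 differed by -3.16 and -3.13. Acat1, the mitochondrial thiolase of ketone and isoleucine metabolism, differed by -2.70 and -3.12. G0s2, an inhibitor of triglyceride lipase, has 3 probes that differed by -1.70, -3.43 and -3.05. For these 4 genes every NS array stood above every ESC array, which the ranking rule required.

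Hmgb3, a chromatin protein of the high mobility group, differed by -2.53, -2.31 and -1.97 on 3 probes, 1 of which shares at least 15 bases with a probe named for Rbm34. Zfpm2, a cofactor of GATA factors, differed by -3.21 and -1.89, and the glutathione transferase Gstm5 by -2.02 and -2.91. Slc37a4, the glucose-6-phosphate transporter of the endoplasmic reticulum, differed by -2.33 and -2.33 on probes that share 53 bases. The remaining ranked genes were Sgcb (-2.29 and -2.23), a sarcoglycan, Maged1 (-2.37 and -2.04), Zfp704 (-1.70 and -2.96) and the paraoxonase Pon2 (-2.46 and -1.66). Under the alternatives tested, the differences of the 24 genes ranked by this rule were 0.795 to 1.61 times their main values. The genes were chosen as the largest called differences on these same arrays, which makes such stability likely in advance.

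Among bright genes with a single probe, Morc1, which acts in silencing of transposons in the male germ line, ranked first: it read 4.03 and 4.10 on the ESC arrays and -3.28 and -4.56 on the NS arrays, a difference of 7.98 (SE 0.427, adjusted p = 0.000124). Its sample intensity in NS was 102 and 35.4, well above background on the first NS array only, so the size is uncertain; under normexp it was 5.70. The 9 next in the ESC direction ran from 6.23 for Inhba, the beta-A subunit of activin, to 4.90 for F11r, a tight junction adhesion protein. They include Ccn2 (6.21), a matrix-associated growth regulator, the X-linked homeobox gene Rhox5 (5.85), Ptgs2 (5.25), the inducible cyclooxygenase, and Grb7 (5.41), an adaptor of receptor tyrosine kinases. Plac8 (5.60) and the zinc finger gene Zbtb32 (5.31) complete them with Rpl39l (6.09), a paralogue of a ribosomal protein known from testis. Rpl39l read -0.71 and -0.45 on the ESC arrays and -6.30 and -7.04 on the NS arrays.

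Kcnmb4, a beta subunit of calcium-activated potassium channels, led the single-probe genes higher in NS: it read -1.05 and -1.72 on the ESC arrays and 4.71 and 4.71 on the NS arrays, a difference of -6.09 (SE 0.383, adjusted p = 0.000197). Ramp1, which pairs with the receptor of calcitonin gene-related peptide, differed by -5.51. Gpm6b, a relative of Gpm6a, differed by -5.31 on 3 measured arrays. Transcription factors of forebrain patterning and neurons followed, with Nr2f1 at -4.60, Mef2c at -4.34 and Meis2 at -3.94. Prkcb (-5.05), a protein kinase C, the protease inhibitor A2m (-4.94) and the cytokine Il18 (-4.91) stood among them.

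In 37 genes the probes were called in opposite directions, so their direction depends on the probe read. Tuba1c, an alpha-tubulin, read -0.37 and -0.33 in ESC and -3.17 and -3.12 in NS on 1 probe and 0.54 and 0.68 in ESC and 1.02 and 0.90 in NS on the other, differences of 2.79 and -0.35. Tango6 differed by 1.03 and -1.19 and Rad9a, a checkpoint clamp protein, by -2.02 and 0.66 on its probes. Those 3 and Ints6, an Integrator subunit, have bright probes throughout. The widest gap belonged to Fgfbp1, a carrier of fibroblast growth factors, at -0.45 and 5.59; 1 of its probes shares a run of at least 15 bases with a probe named for Rab37. The sequences of the probes of the 10 widest pairs share no run of 15 bases with each other. In 79 further genes the brightest probe was not called while another was called at 2-fold or more, and in 106 the brightest was called at 2-fold or more while no other probe was called. Piwil2, a small-RNA-binding protein of the germ line, is such a case, at 0.14 and 4.36. Thy1, a surface protein of fibroblasts and neurons, differed by 0.16 and 2.62.

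Genes of pluripotency were higher in ESC. Of 25 measured members of that list, 22 passed, each in the ESC direction, with a median difference of 2.60 (2.10 and 2.62 within the extraction days) against 0.02 over all genes and a called share of 25.5%. Nr0b1 (Dax1), a nuclear receptor active in ESC, had 5.45, Dppa4, a chromatin-linked protein of early embryos, 5.60, and Zfp42 (Rex1) 4.28 on 3 arrays. Klf4, a reprogramming factor, differed by 1.52 and Lin28a, an RNA-binding protein that blocks let-7, by 1.96. Dppa5a was called higher in ESC, but its sample channel was saturated on both ESC arrays, so no size is given. Dppa3 (Stella) was not well above background in NS. In the sample channel it was at least 463-fold higher in ESC, whereas its ratio difference was 4.53 (4.30 under normexp). Such bounds set normalized sample intensities against the lowest signal marked above background.

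Sox2, Esrrb and Otx2 did not pass. Sox2, which serves both ESC and neural progenitors, read 5.70 and 5.60 on the ESC arrays and 5.69 and 5.67 on the NS arrays, a difference of -0.03 (SE 0.0706, adjusted p = 0.816). Its reference intensity was between 1.93% and 2.06% of the sample on all 4 arrays. That is close to the lowest share seen among unsaturated probes of high sample signal (0.999% to 1.83% an array). Those probes were cut on the sample channel alone and are not the bright set. From the sample channel alone it differed by -0.63 (not called). Otx2, a head and epiblast factor, read 4.54 and 3.65 on the ESC arrays and 4.42 and 4.18 on the NS arrays, a difference of -0.20 that turned to 0.24 without the second ESC array. Esrrb, an orphan nuclear receptor of naive ESC, differed by 0.13 (adjusted p = 0.563). Fgf4 was called at 0.32, but not without the first ESC array (0.24), the first NS array (0.29) or the second (0.34). The 3 probes of Tdgf1 (Cripto), a Nodal co-receptor, differed by 1.28, 2.98 and 5.40.

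A list of germline genes was also higher in ESC, with 13 of 16 members called, each in that direction, and a median of 1.86 (1.64 and 2.14 within the extraction days). Besides Morc1 and Rhox5 they include Tdrd12 (4.00), which acts in making small RNAs against transposons, Stra8 (3.90), which starts meiosis in response to retinoic acid, and Hormad1 (2.95) and Sycp3 (2.28), proteins of meiotic chromosomes. The vasa homologue Ddx4 differed by 1.20. The brightest probes of Piwil2, Mov10l1 and Asz1 were not called. Under the normexp alternative the list's median was 1.11.

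Nodal signalling, which ESC and the early epiblast share, had 10 of 16 members higher in ESC and 1 higher in NS (median 1.06, or 0.98 and 1.01 within the extraction days). Its secreted inhibitors Lefty1 and Lefty2 differed by 4.62 and 2.29, the ligand Nodal itself by 0.97 and the related ligand Gdf3 by 2.64. The 1 higher in NS was Gdf1 (2 genes were without the second ESC array), and Smad2 (-0.06), Smad3 (-0.26) and Foxh1 (-0.04), which carry the signal to the nucleus, did not pass. All 5 measured genes of the Lin28 and let-7 list were higher in ESC (median 1.59, or 1.66 and 1.52 within the extraction days), led by Mycn (2.05) and Lin28a itself; the architectural chromatin protein Hmga1 differed by 1.59. In the LIF pathway 4 of 8 genes were higher in ESC and 1 in NS (median 0.19, or 0.20 and 0.20 within the extraction days). They include the feedback inhibitor Socs3 (3.03) and the kinase Pim3 (1.70); the kinase Jak2 was lower at -1.54 and the receptor Lifr did not pass at -0.20.

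Epithelial genes followed the same direction. Of 22 members, 15 were called higher in ESC (median 1.79, or 1.53 and 1.86 within the extraction days). Cdh1 (E-cadherin), which holds ESC colonies together, read 3.46 and 3.48 on the ESC arrays and -0.45 and -0.26 on the NS arrays, a difference of 3.82 (SE 0.0993, adjusted p = 2.91e-05). The tight junction protein Cldn4 differed by 4.11, the polarity protein Crb3 by 4.36, the protease inhibitor Spint2 by 4.77, the desmosomal protein Perp by 4.81 and keratin Krt18 by 3.30. Cdh2 (N-cadherin), the cadherin of neuroepithelium, was higher in NS at -1.01. The junction genes Cldn3 and Ocln did not pass.

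Genes that mark fibroblasts were also higher in ESC, which had been grown over fibroblast feeders. Of 22 members of that list, 16 were higher in ESC and 1 higher in NS (median 1.45, or 1.44 and 1.45 within the extraction days). Their summed sample intensity was 324573 and 275757 on the ESC arrays and 86274 and 92007 on the NS arrays, and all 22 were well above background on every array. Collagen Col1a1 differed by 2.53, Postn, a matrix protein, by 3.88, the collagen cross-linker Lox by 3.76 and Tagln, an actin-binding protein, by 3.10. Lum, a small proteoglycan, was higher in NS at -1.19, a call lost without the first (-1.18) or the second NS array (-1.19). The matrix genes Dcn (0.74) and Fbln2 (0.01) did not pass, nor did the brightest Thy1 probe (0.16). What part feeder RNA has in the genes higher in ESC was not tested.

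Markers of other cell types had smaller medians. Primitive endoderm had 11 of 18 members higher in ESC and 2 higher in NS (median 0.44, or 0.36 and 0.64 within the extraction days), with the laminin Lamb1 at 2.23, while Foxa2 (0.12) and Afp (-0.08) did not pass. Of 12 leukocyte and macrophage markers, 5 were higher in ESC (median 0.40, or 0.55 and 0.25 within the extraction days), among them Lyz2 (3.35), and without the second NS array 3 were. Their median was 0.85 without the first NS array, 0.25 under normexp and 0.18 with outlier spots kept; Ptprc (0.27), the defining CD45 gene, did not pass. Endothelial markers split, with 6 of 10 higher in ESC and 3 higher in NS (median 0.57, or 0.55 and 0.54 within the extraction days), and with 3 and 1 in the sample channel alone. Summed sample intensity of the primitive endoderm list was 151035 and 120024 in ESC and 54039 and 49284 in NS. For the leukocyte list it was 55453 and 55465 in ESC and 36645 and 31222 in NS, and for the endothelial list 41063 and 32015 in ESC and 18326.5 and 19892 in NS. All 3 sums were higher on both ESC arrays. The part of these cells in other results was not tested.

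**Figure D4:**
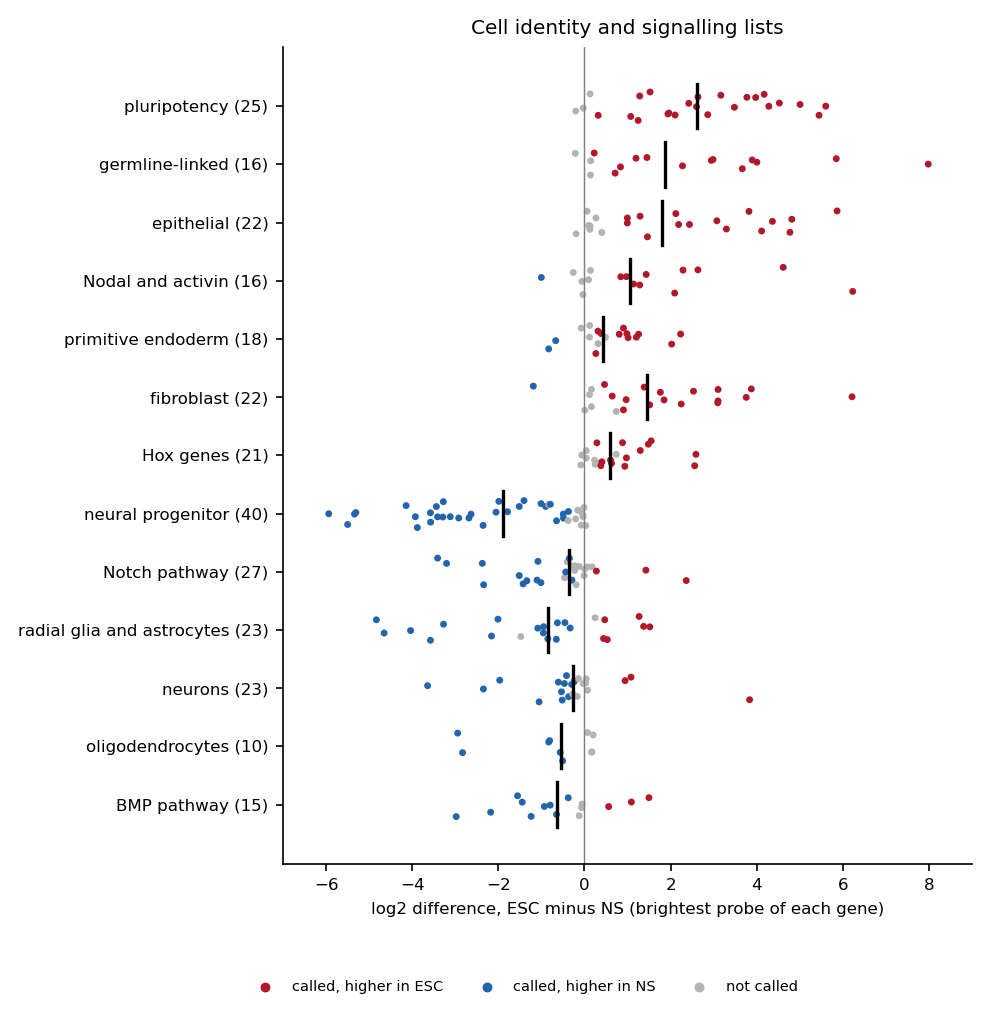
ESC minus NS difference (x axis, log2) of every measured member of the lists of cell identity, 1 row a list; each point is a gene, red where called higher in ESC, blue where called higher in NS and grey where not called, and a bar marks the median. Pluripotency, germline and epithelial genes lie mostly right of 0, and neural progenitor genes left of it with a median of -1.89.

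Genes of neural progenitors were higher in NS: 30 of 40 measured members passed, each in that direction, with a median of -1.89 (-1.86 and -1.75 within the extraction days) against a called share of 19.7% over all genes. Ptprz1, a receptor phosphatase of radial glia, read 0.01 and 0.75 on the ESC arrays and 6.08 and 5.37 on the NS arrays, a difference of -5.34 (SE 0.320, adjusted p = 0.000168). Both NS arrays stood above both ESC arrays. The forebrain factors Lhx2, Zic1 and Nfia differed by -4.14, -3.93 and -3.88, and Pax6 by -2.05. Nestin (Nes), the intermediate filament of neural progenitors, differed by -2.68. Fabp7, a radial glial fatty acid-binding protein, was called higher in NS, but its sample channel was saturated on both NS arrays, so no size is given.

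Of the ventral markers, Nkx2-1 (-0.01), Dlx1 (-0.16) and Dlx2 (-0.04) did not pass, nor did Sox1 (-0.21) and Msi1 (-0.07). The 2 probes of Sox9, a factor of neural stem cells and glia, differed by -2.92 and -0.08, so its call rests on 1 probe. Nr2e1 (Tlx), a nuclear receptor of neural stem cells, was not well above background in ESC. In the sample channel it was at least 11.0-fold higher in NS, whereas its ratio difference was -3.18 (-1.52 under normexp). By the same bound Olig2, a progenitor factor of motor neurons and oligodendrocytes, was at least 3.26-fold higher in NS.

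Notch genes leaned to NS. Of 27 measured members, 13 were higher in NS and 3 higher in ESC (median -0.35, or -0.42 and -0.33 within the extraction days). Receptor Notch1 read 1.32 and 1.03 on the ESC arrays and 3.51 and 3.58 on the NS arrays, a difference of -2.37. The ligand Dll1 differed by -1.51, the ligand-like Dner by -3.20, the target Hes1 by -1.34 and the feedback gene Nrarp by -1.43. Without the first ESC array 1 rather than 3 was higher in ESC. Notch4, the endothelial receptor, was higher in ESC at 1.43, and Notch2 did not pass at -0.01. BMP genes also leaned to NS, with 9 of 15 higher there and 3 higher in ESC (median -0.65, or -0.65 and -0.41 within the extraction days), led by Bmp7 (-2.98) and the receptors Bmpr1b (-2.18) and Bmpr2 (-1.55); the target Id3 differed by -1.45. Without the second NS array, 6 rather than 9 BMP genes were higher in NS.

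Genes of the glial lineage were mixed. Of 23 genes of radial glia and astrocytes, 15 were higher in NS and 6 higher in ESC (median -0.85, or -0.81 and -0.70 within the extraction days; -0.55 under normexp). The glutamate transporter Slc1a3 differed by -3.27, the folate enzyme Aldh1l1 by -4.04 and Sparcl1, a synapse-promoting matrix protein, by -4.83. Against them Apoe (1.37), the gap junction protein Gja1 (1.27) and Timp3 (1.52) were higher in ESC, and the 6 such calls were 3 in the sample channel alone. In the oligodendrocyte list 6 of 10 genes were higher in NS (median -0.54, or -0.55 and -0.52 within the extraction days), led by Sox8 (-2.94) and Nkx2-2 (-2.83), whereas the myelin genes Mog (0.16) and Mag (0.20) did not pass.

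Neuronal genes moved both ways: 12 of 23 were higher in NS and 3 higher in ESC (median -0.27, or -0.29 and -0.34 within the extraction days). The adhesion protein Cntn1 differed by -3.64 and the neurofilament Nefm by -1.97. Stmn2, a microtubule regulator of growing axons, was higher in ESC: it read 1.72 and 1.67 on the ESC arrays and -2.15 and -2.14 on the NS arrays, a difference of 3.84 (SE 0.0628, adjusted p = 2.01e-05). Tubb3, the neuronal beta-tubulin, was also higher in ESC at 0.94. The 12 calls fell to 7 in the sample channel alone and to 7 without the first NS array. Summed sample intensity of the list overlapped between the cell types, at 503630 and 431698 in ESC and 436521 and 414174 in NS. Among 54 protocadherins, 15 were higher in NS, with Pcdh10 at -3.76, and 1 higher in ESC (median -0.09, or -0.10 and -0.12 within the extraction days); without the second NS array 9 were higher in NS and 0 in ESC.

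Cholesterol synthesis was higher in NS almost throughout. Of 15 measured members, 13 passed, each in that direction, with a median of -1.07 (-1.05 and -1.09 within the extraction days). Insig1, which holds the sterol sensor in the endoplasmic reticulum, read -1.41 and -1.29 on the ESC arrays and 1.16 and 1.16 on the NS arrays, a difference of -2.51 (SE 0.0701, adjusted p = 3.3e-05). Sqle, the squalene epoxidase, differed by -1.37, Msmo1, a sterol demethylase step, by -1.70 and Dhcr7, the last reductase of the pathway, by -1.71. Ebp (-0.06), a sterol isomerase, did not pass. Hmgcs1, Cyp51 and Srebf2 had no probe named here. The sterol regulatory element core, TCACNCCAC on either strand, was in the promoter window of 0 of the 11 measured members that have one. Windows ran from 250 bases before the start to 50 after, and 1.44% of 27025 RefSeq genes (GRCm38.p6) held the core there.

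Energy metabolism leaned the same way. Of 24 genes of hypoxia response and glycolysis, 13 were higher in NS and 3 higher in ESC (median -0.46, or -0.53 and -0.53 within the extraction days). Adm, a peptide induced by hypoxia, differed by -3.10, the oxygen sensor Egln1 by -2.18, and the glycolytic enzymes Pgk1, Gpi1 and Tpi1 by -1.55, -1.28 and -1.18. Glucose transporters Slc2a1 (0.85) and Slc2a3 (0.79) were higher in ESC, and without the second NS array Slc2a1 was not called at 0.79. Of 69 genes of oxidative phosphorylation, 39 were higher in NS and 2 higher in ESC (median -0.36, or -0.28 and -0.38 within the extraction days), led by the complex I subunit Ndufc2 at -1.72. These are small differences, and the 39 calls fell to 18 in the sample channel alone. Of the 2 calls in ESC, 0 to 1 were left with 1 array left out.

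Mitochondrial ribosomal proteins and the proteasome moved the opposite way by similar small steps. Of 66 mitochondrial ribosomal genes, 38 were higher in ESC and 4 higher in NS (median 0.29, or 0.32 and 0.27 within the extraction days), with Mrpl24 at 1.19 and Mrps6 against them at -1.40. Of 35 proteasome genes, 25 were higher in ESC and 1 higher in NS (median 0.38, or 0.43 and 0.35 within the extraction days), with the base ATPase Psmc5 at 1.00 and Psmd12 at 0.96. In the sample channel alone the ESC calls fell to 17 and 7. Without the first NS array they were 25 and 16, and without the second 24 and 14, with 2 mitochondrial ribosomal genes and 0 proteasome genes higher in NS. For the 74 cytosolic ribosomal genes a direction cannot be given: 51 had a saturated spot, 10 were saturated in both channels on all 4 arrays, and the median of -0.06 turned to 0.12 without saturated probes.

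**Figure D5:**
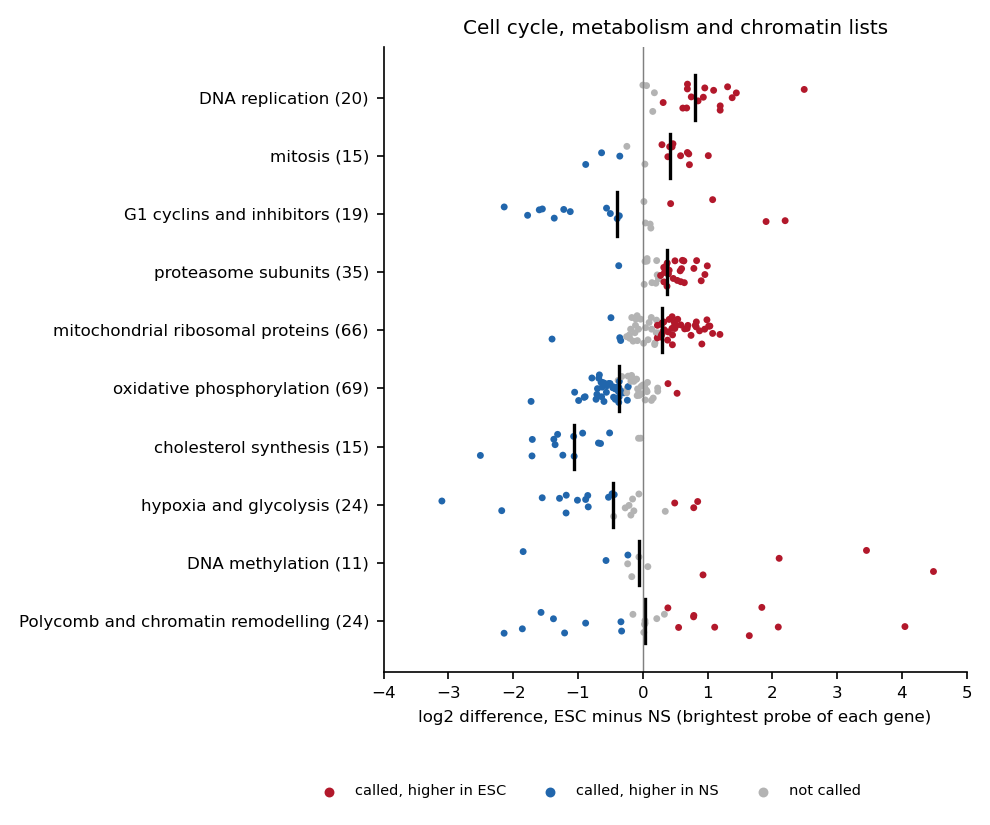
ESC minus NS difference (x axis, log2) of every measured member of the lists of metabolism, cell cycle and protein complexes, 1 row a list; each point is a gene, red where called higher in ESC, blue where called higher in NS and grey where not called, and a bar marks the median. Cholesterol synthesis lies left of 0 with a median of -1.07 and DNA replication right of it with a median of 0.80.

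Genes that build the DNA replication machinery were higher in ESC. Of 20 measured members, 16 passed, each in that direction (median 0.80, or 0.82 and 0.76 within the extraction days). Orc1, the largest subunit of the origin recognition complex, differed by 2.49, and Cdt1 and Cdc6, which load the replicative helicase, by 1.44 and 1.20. Helicase subunits followed with Mcm5 at 1.20 and Mcm6, which read 1.21 and 1.18 on the ESC arrays and 0.60 and 0.40 on the NS arrays, at 0.69. Pcna (0.06) and Rrm2 (0.00), which act at the fork and in nucleotide supply, did not pass. Mitotic genes had 10 of 15 higher in ESC and 3 higher in NS (median 0.42, or 0.48 and 0.38 within the extraction days), but 2 and 2 in the sample channel alone; without the second NS array, 6 were higher in ESC and 2 in NS.

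Of the 18 replication genes with a promoter window in RefSeq, 7 (38.9%) hold the E2F site TTTNGCGC on either strand. Over all 27025 RefSeq genes with a window the share was 1.57%. The 7 are Mcm3, Mcm5, Mcm6, Mcm7, Cdt1, Orc1 and Pola1. E2F factors drive genes of S phase. A match describes the letters and is no evidence of binding. Matches may overlap on opposite strands, as the first pair in Mcm6 does. The 250 bases before the Mcm6 start are shown because this window has 3 matches, 2 of them overlapping, with matches in capitals (minus strand, chr1:128359706-128359955, GRCm38.p6, RefSeq).
Mcm6 promoter: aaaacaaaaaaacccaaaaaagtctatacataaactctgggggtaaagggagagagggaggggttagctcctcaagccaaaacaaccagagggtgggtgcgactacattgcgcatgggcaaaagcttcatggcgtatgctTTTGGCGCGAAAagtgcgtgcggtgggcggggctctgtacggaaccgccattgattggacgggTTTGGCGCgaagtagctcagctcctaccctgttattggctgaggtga
Among those 7, Pola1, a subunit of the priming polymerase, was not called (0.15).

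Regulators of G1 phase leaned to NS, with 11 of 19 higher there and 4 higher in ESC (median -0.39, or -0.43 and -0.41 within the extraction days). The inhibitor Cdkn1b (p27) read 0.99 and 1.07 on the ESC arrays and 3.20 and 3.13 on the NS arrays, a difference of -2.14 (SE 0.209, adjusted p = 0.000895). Cdkn2c and Cdkn2d, inhibitors of the cyclin D kinases, differed by -1.78 and -1.55, Rb1, the retinoblastoma protein, by -1.60 and Ccnd1 (cyclin D1) by -1.37. Ccne1 (cyclin E1) was higher in ESC at 2.20, with Cdkn2a at 1.90 and Ccnd3 at 1.08.

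Among DNA methylation genes, 4 of 11 were higher in ESC and 3 higher in NS (median -0.06, or -0.02 and -0.10 within the extraction days). The de novo enzyme Dnmt3b read 4.35 and 4.56 on the ESC arrays and 0.01 and -0.08 on the NS arrays, a difference of 4.49 (SE 0.0912, adjusted p = 2.07e-05). Its cofactor Dnmt3l differed by 3.45 and the remodeller Hells by 2.11. The maintenance enzyme Dnmt1 was called at -0.23, but not when any 1 of the 4 arrays was left out (-0.23, -0.23, -0.22 and -0.23). With either NS array left out, with the ESC and NS arrays alone or in the sample channel alone, 1 methylation gene rather than 3 was higher in NS. Polycomb and remodelling genes split 9 to 8 of 24 (median 0.04, or 0.08 and 0.07 within the extraction days). Cbx7 (4.05), Eed (2.09) and Phc1 (1.84) were higher in ESC, and Cbx8 (-1.86), Bmi1 (-1.38) and Smarcd3 (-2.14) higher in NS, with Ezh2, the methyltransferase, not called at 0.04.

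Enzymes of serine, glycine and threonine metabolism also split, with 6 of 20 higher in ESC and 7 higher in NS (median 0.21, or 0.16 and 0.12 within the extraction days; 0.14 without the first ESC array, 0.07 without the second). Threonine dehydrogenase Tdh, on which mouse ESC depend, differed by 4.38 on 3 measured arrays, and the cystathionine enzyme Cth by 1.99. Aldh1l1 and the glycine transporter Slc6a9 (-1.95) were higher in NS. Immediate early genes, which respond within minutes to serum and handling, divided 5 to 6 of 15 (median -0.30, or -0.38 and -0.21 within the extraction days), and without the second NS array 3 rather than 5 were higher in ESC. Egr1 (-2.89) and Fos (-2.37) were higher in NS, and Hmox1 (1.64) higher in ESC.

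Hox genes, which pattern the trunk and are silent in forebrain, had 13 of 21 members higher in ESC (median 0.60, or 0.57 and 0.53 within the extraction days), with Hoxa7 at 2.59 and Hoxc6 at 2.56. The sample channel alone kept 5 such calls, and leaving out either ESC array or the second NS array kept 8; the median was 0.35 in the sample channel alone and 0.25 under normexp. The fibroblast markers given earlier were higher in the same arrays; the part of that in the Hox result was not tested.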

How the data were processed

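RNA of 2 ESC and 2 NS samples was read on two-colour Agilent arrays, and 2 arrays of multipotent adult progenitor cells entered the fit for the spread alone. The processed intensities were background-subtracted and dye-normalized by Agilent Feature Extraction A.7.5.1 before they were deposited, per the file headers. Values here are the log2 ratios of those intensities, Cy3 sample over Cy5 reference; for 98.7% or more of the spots of an array they equal the authors' log10 ratio column. The series matrix holds deposited log10 values with column medians between 2.95 and 2.97; their centring is not stated in a header or label, and they served as an alternative, with 0 columns left without a sample. Control spots and outlier spots were left out and repeat spots averaged.

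Probes entered the test when Feature Extraction marked the Cy3 signal of both ESC or of both NS arrays as well above background. That mark was on 93.4% to 99.6% of spots of an array and is a weak sign of expression. Of 41006 probes, 15288 were named through an accession from RefSeq (GRCm38.p6), 15 through a symbol and 72 through an older symbol; 25631 stayed unnamed and were tested. ESC minus NS was fitted by limma 3.58.1 (R 4.3.3, package data.table, version 1.17.8; lmFit and eBayes, two-sided) with 3 residual degrees of freedom, and adjusted p-values are Benjamini-Hochberg over all tested probes. On simulated data with 39169 probes, 200 were changed, 50 at each size. The fit recovered 6% of changes of 0.5 log2, 64% of 1, 88% of 2 and 94% of 3, and called 8 unchanged probes. In the arrays themselves 34.0% of probes were called, so these rates need not carry over to them.

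The members, gene lists and tests were chosen with earlier results of these data known. Genes were named by rule, starting with the markers. Then came the 12 largest in each direction among genes with 2 or more probes. All those probes had to be bright, called in 1 direction and at least 2-fold, without overlap between the arrays of the cell types. A probe was dropped when its sample channel was saturated on both arrays of a cell type. Saturation on 1 array or in the reference channel was allowed. The 10 largest bright single-probe genes in each direction, also called without overlap, and the 10 genes with the widest opposite calls followed. Up to 4 leading members of a list were added, with defining members that did not pass and 2 that went against. Bounds completed the rule. Some list members are named outside that rule for their role, after their values were seen. Of 1143 list genes, 963 were tested. Where 1 cell type was not above background, a fold is a bound from normalized intensities of the sample channel, open to dye bias. Number of arrays limits the precision.

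Replicate number and extraction day coincide: replicates 2 were extracted on 1 day and replicates 1 on the other. Replicate deviations correlated at 0.136 between ESC and NS, 0.130 between ESC and the progenitor cells and 0.0642 between NS and the progenitor cells, so the numbers were not taken to pair the samples. Alternatives changed the background correction, reference channel, centring, filter, variance model, samples, probes of a gene and block. Some genes and 1 probe sequence are not reported here.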

Additional observations from a re-analysis of the deposited data

How the results depend on the processing

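The number of called probes, 13337, was 8282 when the reference channel was set aside and the sample channel used alone; bright calls went from 7867 to 4556 and genes with every probe called 1 way from 730 to 396. Leaving out 1 array gave 9776 to 11537 called probes, 5696 to 6685 bright ones and 481 to 584 such genes, with 481 without the second NS array. The replicate block, which is also the extraction-day block, left 13271, 7704 and 724. The median of the integrin and cadherin list, 0.04, was -0.065 in the sample channel alone and -0.031 without the second ESC array, within a leave-one-out range up to 0.11. The cytosolic ribosomal median was 0.12 without saturated probes, an alternative chosen after seeing the data. The cause of these changes was not tested.

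Of 1004 named or listed genes, 619 were called, and 409 of these kept the call under every alternative that gave a p-value. The other 210 lost it under at least 1, and no called gene was called in the opposite direction. The sample channel alone removed 177 calls, normexp 4 and the replicate block 29. In the sample channel alone Apoe (2.32), Ccnd1 (-2.15), Ccnd3 (1.80), Fgf4 (0.75), Nrarp (-2.62), Ndn (-2.13), Phlda2 (7.44), Sox4 (-2.80), Gdf3 (8.0), Slc2a3 (1.39) and Tubb3 (1.79) moved by over 1.5 times. Under normexp Wnt8a (0.93), Cdkn2a (0.91), Crb3 (2.76) and Sycp3 (1.15) did. With a gene taken as the mean of its probes, Dusp6 (-0.66), Fgf5 (1.42), Fzd1 (-1.23), Gli1 (1.96), Ccnd1 (-0.90), Hmga1 (0.72), Nfia (-2.31) and Timp3 (0.90) did.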

Other observations

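Imprinted genes, expressed from 1 parental copy, split between the cell types, with 7 of 19 measured members higher in ESC and 8 higher in NS (median -0.22, or -0.16 and -0.18 within the extraction days). Nap1l5, a histone chaperone relative, was the most NS-biased at -4.34, and others higher in NS were Asb4 (-2.28) and Ndn (-1.41), a MAGE family protein of neurons. Phlda2, which limits placental growth, was higher in ESC: it read 2.86 and 3.00 on the ESC arrays and 0.00 and 0.02 on the NS arrays, a difference of 2.92. Slc22a18, its neighbour in an imprinted cluster, differed by 1.85, and Igf2 did not pass at 0.10. The ESC count of 7 was 4 in the sample channel alone, 3 without the first NS array and 4 without the second. The median was 0.02 without the first ESC array, -0.03 under normexp and -0.48 in the sample channel alone, so it gives no direction.

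Signalling genes outside the Nodal, Notch and BMP lists did not share 1 direction. Of 40 Wnt genes, 8 were higher in ESC and 9 higher in NS (median 0.02, or -0.09 and 0.04 within the extraction days). Both counts lie near the shares over all genes, 25.5% higher in ESC and 19.7% higher in NS. Tcf7l1, the repressor that tempers Wnt output in ESC, differed by 1.49 and the ligand Wnt8a by 1.82, while the receptor Fzd1 and the feedback inhibitor Nkd1 were higher in NS at -2.26 and -2.89. The ESC count of 8 was 4 without the first ESC array and 4 without the second NS array, and the median ran from -0.01 to 0.06 with 1 array left out. Of 7 Hedgehog genes (median -0.19, or -0.26 and -0.12 within the extraction days), the target Gli1 was higher in ESC (3.73) and the co-receptors Gas1 (-2.64) and Boc (-1.32) higher in NS, whereas Shh (0.00) and Ptch1 (-0.13) did not pass.

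In the fibroblast and epidermal growth factor list, 5 of 20 genes were higher in each cell type (median 0.03, or -0.02 and 0.02 within the extraction days). Those counts lie near the shares over all genes, 25.5% higher in ESC and 19.7% higher in NS. NS, which were grown with both factors, had more of the feedback inhibitor Spry1 (-2.24), the ETS factor Etv1 (-2.88) and the phosphatase Dusp6 (-1.19), but Etv4 (-0.42) and Etv5 (-0.03), targets of the same pathway, did not pass. ESC had more Fgf5 (2.63), a marker of the epiblast after implantation, whereas the gastrulation genes T (0.10), Mixl1 (-0.26) and Mesp1 (0.02) did not pass. Without the second ESC array, 3 genes rather than 5 were higher in NS, and without the first the median was -0.04. Binding proteins of insulin-like growth factors went opposite ways, Igfbp7 at 3.69 and Igfbp4 at -2.45. Among 15 Sox genes, 4 were higher in ESC and 5 in NS (median -0.21, or -0.26 and -0.18 within the extraction days). Sox4 (-1.54), Sox5 (-2.79) and Sox11 (-1.49) were in the second set, and without the first or the second NS array 2 were higher in ESC. The Sox median was -0.14 without the second NS array and -0.41 in the sample channel alone.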
